A study of Homo sapiens with 9 samples.

Results

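The transcript profile described here is that of fresh THP-1 cells, taken as the 3 arrays labelled fresh out of 9 arrays in the series. THP-1 is an established human monocytic leukemia line. The series profiled it in 3 states, fresh, frozen and replated, with 3 arrays each, and its title concerns RNA taken from liquid nitrogen stocks. All 9 arrays share the cell line and the RNA kit, no other treatment, genotype or culture time is given in the labels, and the replicates are called biological without a statement of how they were separated. Presence and absence were read on the fresh arrays alone, with no contrast, and the frozen and replated arrays were used only to show where the fresh state differed from them.

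THP-1 cells grow as single cells in suspension and stand at an early step of the monocyte lineage, where granule proteins of the promyelocyte are still made while receptors of the circulating monocyte begin to appear. They carry a fusion of KMT2A with MLLT3, a lesion known for keeping homeobox genes and their partners active in myeloid leukemia. On a bead array each probe reads 1 stretch of a transcript, and a probe is called detected when its signal rises above that of beads with no human target.

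A probe was called detected on an array when its detection score was above 0.95, and a gene was called detected when at least 1 of its probes was detected on all 3 fresh arrays. A gene was called not detected when none of its probes reached the score on any fresh array, and mixed otherwise. Each value below is the non-normalized signal of the gene's brightest probe on fresh replicates 1, 2 and 3 in that order, or the percentile of that signal among the 48803 probes of the array, averaged over the 3 arrays. A probe's brightness depends on its sequence as well as on its transcript, so percentiles place a probe on the array and do not rank transcripts against each other.

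The fresh arrays detected 17339, 17679 and 16898 probes, which was 35.5%, 36.2% and 34.6% of all probes. The lowest detected signal was 73.6, 70.5 and 71.3, against a median signal of 63.8, 62.2 and 61.1 and a highest signal of 29649, 28872 and 28347. A median probe thus lay below the detection limit on each array. The 100 brightest probes held 12.9%, 13.1% and 13.2% of the summed signal. On the 6 frozen and replated arrays between 16960 and 17478 probes were detected.

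Of 18662 genes with a named probe, 10052 (53.9%) were detected on all 3 fresh arrays, 7414 (39.7%) were detected on none, and 1196 (6.41%) were mixed. Among protein-coding genes 57.1% of 17213 were detected, and among long non-coding RNA genes 7.86% of 1056. The share also moved with the number of probes, being 49.1% of the 12751 genes with 1 probe and 62.0% of the 3788 genes with 2 probes. Of the 5911 genes with more than 1 probe, 1720 (29.1%) had at least 1 probe detected on all 3 arrays and another detected on none. A state therefore belongs to the probes of a gene, and a gene called not detected may still be transcribed.

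The lists of lineage, receptor, transcription factor, leukemia, metabolic and reference genes examined below hold 631 genes with a named probe, of which 365 were detected, 38 were mixed and 228 were not detected. The lists differ widely around the 53.9% of all genes. All 32 genes of serine, glutamine and nucleotide metabolism and all 12 reference genes were detected, while 0 of 13 erythroid markers were.

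**Figure D1:**
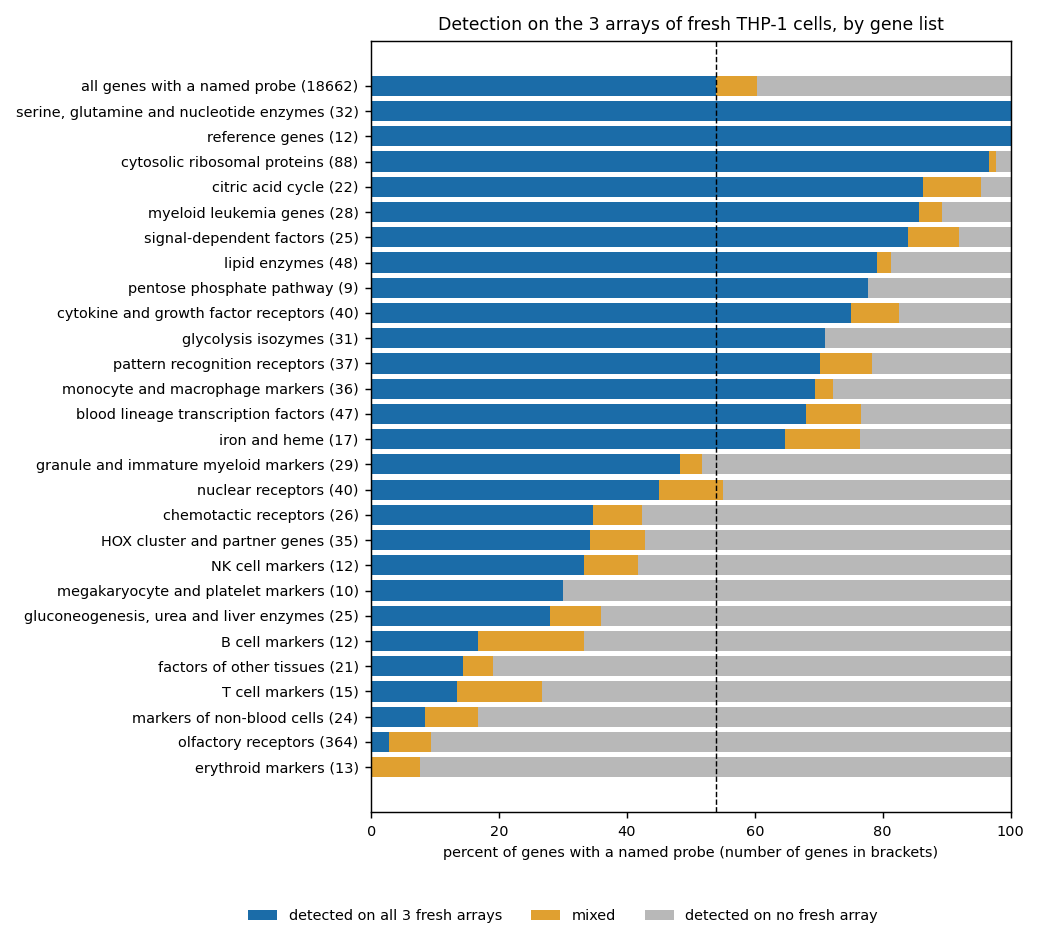
Percent of genes detected on all 3 fresh arrays, mixed, or detected on no fresh array, for each gene list (horizontal bars, number of genes with a named probe in brackets), with all 18662 genes in the top row and their 53.9% as the dashed line. Reference and biosynthetic genes reach 100%, and erythroid markers (0 of 13) and olfactory receptors (10 of 364) stand at the bottom.

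Gene families known mainly from other tissues show how often genes without an expected transcript were called. Low transcription and a call without a transcript cannot be told apart here. Of 364 olfactory receptor genes, which encode odorant receptors of the nasal epithelium, 10 (2.75%) were detected. Their signals ran from 71.5 to 125, close to the detection limit, and 2 of them, OR11L1 and OR51T1, still passed a score above 0.99. Of 24 bitter taste receptor genes 0 were detected and of 79 keratin-associated protein genes, which build hair, 2 (2.53%) were. At the other end stood the translation and degradation machinery. Of 88 cytosolic ribosomal protein genes 85 (96.6%) were detected, as were all 77 mitochondrial ribosomal protein genes, 34 of 36 proteasome subunit genes and 37 of 40 NADH dehydrogenase subunit genes. The proteasome subunits not detected were PSMA8 and PSMB11, which serve the testis and the thymus. RPL10 and RPL3L of the cytosolic ribosomal proteins and NDUFA5 and NDUFS6 of the NADH dehydrogenase subunits were also not detected. A missing call in these families is therefore not by itself a sign of a silent gene. Beyond these, 296 of 443 ZNF zinc finger genes (66.8%), 188 of 362 solute carrier genes (51.9%) and 3 of 48 keratin genes (6.25%) were detected.

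The brightest genes were dominated by translation and structure. By mean normalized signal the 15 brightest were OAZ1, which encodes the antizyme that limits polyamine synthesis, EEF1A1, RPS10, ACTB, FTL, RPS25, SRGN, RPS3, RPS2, TPT1, ACTG1, RPL8, RPL41, RPL27 and RPS12. OAZ1 read 28358, 27861 and 28128. FTL, the ferritin light chain that stores iron, read 26765, 28054 and 25882. SRGN, serglycin, the proteoglycan that packs granule proteases, read 25979, 24772 and 27186. All 3 arrays placed these probes above percentile 99.9. Without ribosomal, elongation factor, actin and tubulin genes, ELANE and CTSG, proteases of the myeloid granule, stood among the 15 brightest together with YBX1, H3-3A, CLUAP1, UBB, COX7C, ATP5F1B, SLC7A5P2, H3P6 and GLO1. SLC7A5P2 and H3P6 carry pseudogene symbols, and whether their probes read the parent genes was not analysed here. SLC7A5P2 was detected by 1 of its 2 probes, and its other probe was detected on no fresh array.

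Promyelocytes store azurophil granule proteins for the killing of microbes. The genes listed under that name were all detected, 9 of 9 against 53.9% of all genes. The list is wider than the granule, as it also holds RNASE2, of eosinophil granules, and SRGN, which packs granule proteases. ELANE, neutrophil elastase, read 22228, 20183 and 20948, at percentile 99.9. CTSG, cathepsin G, read 22483, 19708 and 20695, also at percentile 99.9. PRTN3, proteinase 3, read 9706, 8375 and 7889, and AZU1, azurocidin, read 7965, 7913 and 7486. All 3 arrays put these 4 genes above percentile 99. RNASE2, a ribonuclease of eosinophil granules, read 13511, 12633 and 12692. MPO, myeloperoxidase, the best known product of the azurophil granule, stood apart at 126, 121 and 118 on its 1 probe. That is percentile 77.0 and less than 2 times the detection limit. Genes listed as late granule proteins, of neutrophils and of eosinophils (PRG2, EPX and CLC), were mostly not detected. Of 12 such genes, 2 were detected, the antimicrobial peptide gene CAMP (274, 269 and 245) and CHI3L1 (105, 102 and 81.6), 1 was mixed (EPX) and 9 were not detected, among them LTF, LCN2, MMP8, MMP9, OLFM4 and ARG1.

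ELANE, PRTN3 and AZU1 are neighbours on chromosome 19 in the RefSeq gene order; the start region of ELANE was not analysed here. The 120 bases before the annotated start are shown for 3 granule protein genes and for CD14, all with few CpG dinucleotides, and for the glycolysis genes GAPDH and ENO1, which are rich in them. Capitals mark the letters TATAA and GAGGAA on either strand (GAGGAA reads TTCCTC on the other strand); the first is the core of the TATA box and the second a core bound by the myeloid factor PU.1, the product of SPI1. The sequences are those of RefSeq on GRCh38.p14, given 5′ to 3′ on the strand of the gene.
AZU1 (chr19:827717-827836, plus strand): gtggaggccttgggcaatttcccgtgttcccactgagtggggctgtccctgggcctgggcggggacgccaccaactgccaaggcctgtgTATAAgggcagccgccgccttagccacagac
PRTN3 (chr19:840879-840998, plus strand): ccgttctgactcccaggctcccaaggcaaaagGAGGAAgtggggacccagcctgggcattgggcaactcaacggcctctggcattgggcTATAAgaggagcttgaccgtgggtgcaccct
CTSG (chr14:24576251-24576370, minus strand): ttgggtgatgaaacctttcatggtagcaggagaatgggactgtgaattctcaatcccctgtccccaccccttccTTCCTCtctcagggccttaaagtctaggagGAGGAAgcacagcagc
CD14 (chr5:140633176-140633295, minus strand): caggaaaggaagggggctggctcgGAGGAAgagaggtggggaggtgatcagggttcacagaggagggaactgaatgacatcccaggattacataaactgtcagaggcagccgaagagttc
GAPDH (chr12:6535144-6535263, plus strand): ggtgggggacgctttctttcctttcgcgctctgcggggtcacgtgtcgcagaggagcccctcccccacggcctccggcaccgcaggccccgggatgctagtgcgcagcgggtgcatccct
ENO1 (chr1:8878687-8878806, minus strand): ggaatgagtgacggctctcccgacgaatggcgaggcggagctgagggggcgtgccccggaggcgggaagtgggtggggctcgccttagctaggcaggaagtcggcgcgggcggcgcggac

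TATAA begins 31 bases before the start in both AZU1 and PRTN3, and GAGGAA begins 88 bases before the start in PRTN3, 96 in CD14 and 16 in CTSG, with a further match on the other strand of CTSG. The full windows, from 250 bases before to 50 after the start, hold 9 CpG dinucleotides in AZU1, 9 in PRTN3, 3 in CTSG and 8 in CD14, against 28 in GAPDH and 32 in ENO1. All 6 genes were chosen among detected genes. Across the array CpG content was compared between genes detected and not detected. A window was at hand for 13991 of 17213 protein-coding genes with a named probe (81.3%), using the first start listed for each gene. Windows of the 8239 detected genes held a median of 26 CpG dinucleotides (quartiles 18 and 34), and windows of the 4858 genes not detected held a median of 10 (quartiles 3 and 26). The share of genes detected was 17.9% of the 1314 genes with at most 2 CpG dinucleotides and 73.1% of the 4019 genes with more than 30.

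Letters were searched on both strands, and shares are set against those over all 13991 protein-coding genes with a named probe and a window. GGGCGG, the core of Sp1 sites, was in 69.6% of windows of detected genes and 43.8% of windows of not detected genes, against 59.8%. CCGGAAGT, an ETS factor core, was in 9.38% of windows of detected and 1.85% of windows of not detected genes, against 6.40%. TATAA ran the other way, with 11.3% of detected and 24.8% of not detected genes, against 16.4%. GAGGAA was in 27.3% of windows of detected and 28.3% of windows of not detected genes, against 27.7%. CCAAT was in 37.7% and 35.7%, against 36.8%. Genes with 1 listed start gave medians of 27 CpG dinucleotides where detected and 9 where not detected. A match is a run of letters and not a bound site, and these shares were not tested. The 6 genes of the azurophil granule list with a window had a median of 7.5 CpG dinucleotides although all were detected. The 14 glycolysis genes used in many tissues had a median of 30.

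**Figure D2:**
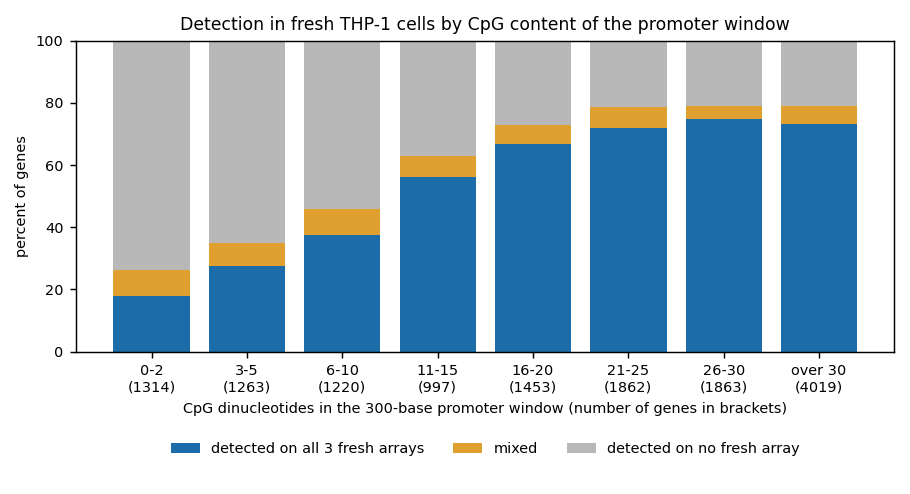
Percent of protein-coding genes detected on all 3 fresh arrays, mixed, or detected on no fresh array (stacked bars), by the number of CpG dinucleotides in the 300-base window around the annotated start (number of genes in brackets). The detected share climbs from 17.9% at 0 to 2 CpG dinucleotides to 73.1% above 30, and is at least 72.0% in each bar from 21 upwards.

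Most markers of the labelled lineage were detected. Of 36 monocyte and macrophage markers, 25 (69.4%) were detected, 1 was mixed and 10 were not detected, against 53.9% and 39.7% of all genes. At a score above 0.99 on all 3 arrays 20 of them (55.6%) passed, against 45.7% of all genes. The surface receptors and lectins among them lay near the share of all genes, with 13 of 22 (59.1%) detected and 10 (45.5%) above 0.99. CD68, a lysosomal glycoprotein of phagocytes, read 6005, 5544 and 5754. FCER1G and TYROBP, signalling adaptors of activating myeloid receptors, read 5677, 4625 and 4925, and 4272, 4123 and 4103. LYZ, lysozyme, read 2836, 2492 and 2567. These proteins serve every mononuclear phagocyte, and their 3 arrays lay close together. The Fc receptors FCGR2A and FCGR1A, which bind antibody-coated particles, were at percentiles 94.1 and 93.1, and the scavenger receptor CD36 was at percentile 92.4. CD14, the lipopolysaccharide co-receptor by which monocytes are usually defined, read 175, 156 and 159 on 1 probe (percentile 80.3) and 67.1, 67.8 and 67.0 on its other probe, which was detected on no fresh array.

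Markers of blood monocytes and tissue macrophages were split. The secreted lectin FCN1 (60.6, 56.6 and 55.1) and the alarmin S100A12 (68.5, 54.6 and 61.7), typical of blood monocytes, were detected on no fresh array. The related S100A8 and S100A9 were detected, at 854, 784 and 898 and at 889, 777 and 814. The macrophage receptors MRC1, MSR1, VSIG4 and SIGLEC1 and the lectins CLEC7A and CLEC4E were detected on no fresh array, and the scavenger receptor MARCO was mixed at 80.2, 72.3 and 71.1. Other genes of macrophages and dendritic cells were detected. GPNMB, a glycoprotein of mature macrophages, read 134, 127 and 114. Of the same list, TREM2 (217, 205 and 192), the lectin CD209 (191, 165 and 174), APOE (88.9, 88.2 and 84.5) and the hemoglobin scavenger receptor CD163 (83.0, 73.9 and 72.0, on 1 of 3 probes) were detected, the last close to the limit; these 4 were chosen after their values were seen. In a bulk sample fewer cells that make a transcript and less transcript per cell cannot be told apart.

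Markers of stem and progenitor cells were split. FLT3, the receptor of the FLT3 ligand, read 374, 399 and 367, and CD38 read 274, 301 and 336. KIT, the stem cell factor receptor, read 92.2, 94.2 and 93.5, with both of its probes detected. CD34, which marks blood stem cells, was detected by 0 of its 5 probes, and PROM1, THY1, SPINK2 and HOPX were also detected on no fresh array. In all, 3 of 8 genes were detected.

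Markers of other blood lineages were detected less often than the 53.9% of all genes. The chains CD3D, CD3E and CD3G of the T cell receptor complex, with 3, 1 and 1 probes, were detected on no fresh array, as were CD2, CD5 and CD7. Of 15 T cell markers, 2 were detected. They were the adaptor LAT (144, 141 and 130, on 2 of 4 probes) and CD247, the zeta chain of the receptor complex (89.0, 91.3 and 87.5, on 2 of 2 probes). BCL11B and CD28 were mixed. Of 12 B cell markers, 2 were detected, CD79B (166, 168 and 163, on 1 of 3 probes) and MS4A1 (73.9, 74.9 and 76.2, on 1 of 3 probes), and CD79A and IGLL1 were mixed. PAX5 and EBF1, the factors that commit cells to the B lineage, were detected on no fresh array. Of 12 natural killer cell markers, 4 were detected, NKG7 (324, 294 and 305), NCAM1 (on 1 of 4 probes), KLRK1 and KLRF1 (on 1 of 2 probes). The killing proteins PRF1, GZMB and GZMA were detected on no fresh array and GNLY was mixed. At a score above 0.99 on all 3 arrays LAT remained of the T cell markers, CD79B of the B cell markers, and NKG7 and NCAM1 of the natural killer cell markers, while 45.7% of all genes passed that score.

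Of 13 erythroid markers 0 were detected and 12 were detected on no fresh array, among them HBA1, HBA2, HBB, HBD, HBG1 and HBG2, the globin genes. ALAS2, the erythroid enzyme of heme synthesis, was mixed at 66.8, 73.9 and 62.4. Of 10 megakaryocyte and platelet markers, 3 were detected. GP9 (193, 180 and 164), GP1BA (108, 98.5 and 95.7) and GP6 (89.2, 93.1 and 97.5) encode platelet surface glycoproteins. The integrin ITGA2B and ITGB3 and the granule chemokines PF4 and PPBP were detected on no fresh array, so these 3 glycoproteins stood without the rest of the list. Of 24 markers of cells outside the blood, 2 were detected. CKM, muscle creatine kinase, read 164, 152 and 149, and APOA1, an apolipoprotein of liver, read 76.0, 76.1 and 76.9 and fell below the score of 0.99. Keratins KRT5 and KRT19, the adhesion genes EPCAM and CDH1 and the collagens COL1A1 and COL1A2 were detected on no fresh array, and CLDN4 and TTR were mixed.

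**Figure D3:**
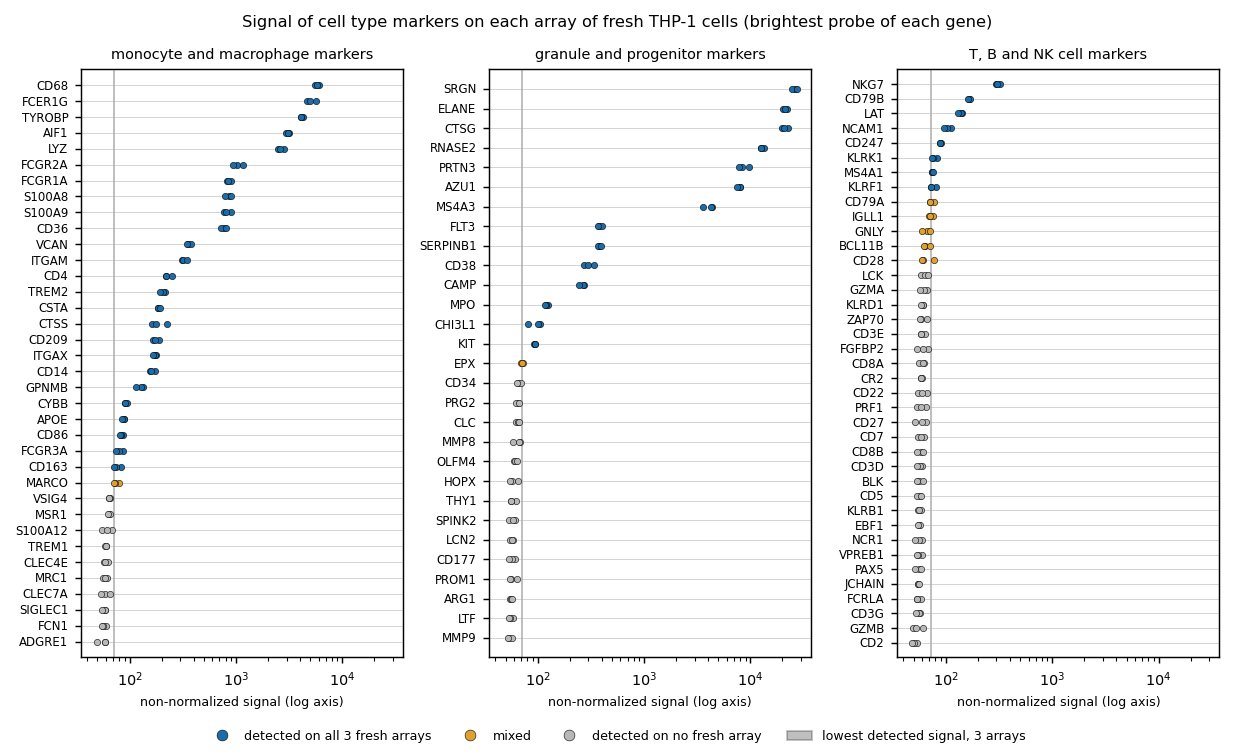
Non-normalized signal (log axis) of cell type markers on the 3 fresh arrays, 1 point per array, with the brightest probe standing for each gene and colour giving the gene's state, beside the lowest detected signals of 70.5 to 73.6 (grey line). ELANE and CTSG read at least 19708 on every array, most T, B and NK cell markers lie at or below the detection limit, and the 3 points of a detected gene lie close together.

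Transcription factors of the myeloid lineage were detected in full at the main score and in large part at the stricter score. Of 14 factors of granulocytes and monocytes, 14 were detected, against 53.9% of all genes. At a score above 0.99, 11 of these 14 (78.6%) passed, against 45.7% of all genes. The list was chosen with earlier results of these data known, so these shares are a description. IRF8, which directs progenitors to monocytes and dendritic cells, read 12492, 11280 and 12806, at percentile 99.6. CEBPA, which starts granulocyte and monocyte development, read 4664, 4871 and 4436. GFI1, a transcriptional repressor that acts in the granulocyte branch, read 2317, 2348 and 2568. SPI1, which encodes PU.1, read 774, 640 and 711 and was detected by both of its probes. CEBPE, which acts in late granule formation, lay near the limit at 77.4, 84.3 and 87.9, as did MAF, of the same list, at 75, 71.7 and 79.8. Among factors shared with stem cells, MYB, whose product keeps progenitors dividing, read 8446, 8280 and 8736, at percentile 99.3. ELF1, LYL1, LMO2, CBFB and RUNX3 lay between percentiles 95.9 and 98.5, and GATA2 read 167, 162 and 140. TAL1 and MECOM were the 2 of 15 shared factors detected on no fresh array.

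Factors of other branches were mostly not detected. GATA1, KLF1 and GFI1B, which drive red cell and platelet development, were detected on no fresh array, while NFE2 (637, 658 and 652) and ZFPM1 (166, 166 and 155), a partner of GATA factors, were detected. Of 13 lymphoid factors, 3 (23.1%) were detected, against 53.9% of all genes. They were BCL11A (836, 818 and 809, on 3 of 3 probes), LEF1 (168, 166 and 169) and EOMES (88.4, 95.4 and 88.2). GATA3, FOXP3, IRF4 and POU2AF1 were detected on no fresh array, and 4 factors, POU2F2, IKZF3, TBX21 and BCL11B, were mixed. Of 21 factors of tissues outside the blood, 3 were detected and all 3 passed a score above 0.99. TWIST1, a mesenchymal factor, read 560, 561 and 496. OLIG2, a factor of oligodendrocytes, read 257, 226 and 227. WT1, a kidney factor often active in acute leukemia, read 213, 207 and 197. Each of these 3 genes has 1 probe, and all 9 values lay well above the detection limit. SOX2, SOX10, MYOD1, MYF5, NEUROG1 and NEUROG2 were detected on no fresh array.

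**Figure D4:**
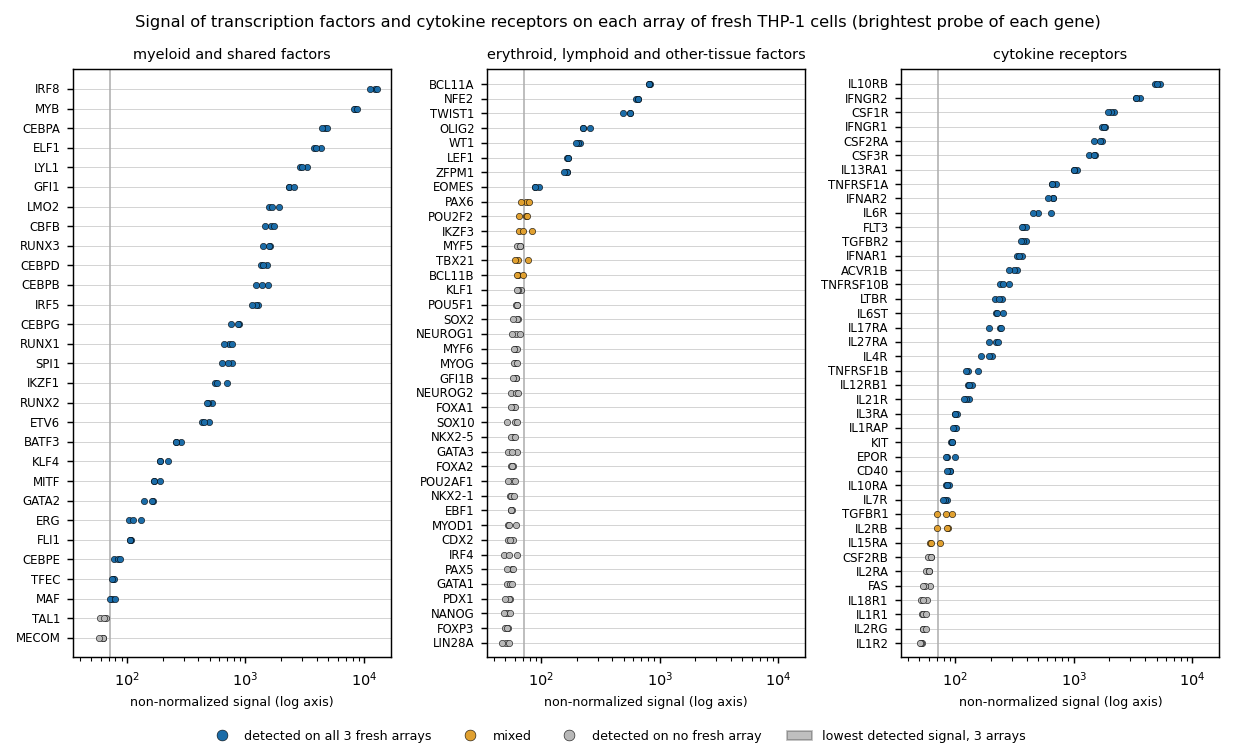
Non-normalized signal (log axis) on the 3 fresh arrays, 1 point per array, of myeloid and shared transcription factors, of erythroid, lymphoid and other-tissue factors, and of cytokine receptors, by the brightest probe, with colour for the state of the gene and a grey line at the lowest detected signals of 70.5 to 73.6. All but TAL1 and MECOM of the myeloid and shared factors are detected, whereas most factors of other lineages lie at or below the limit.

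Homeobox genes give position along the body axis in the embryo and are kept active in KMT2A-rearranged leukemia, chiefly those of the HOXA cluster, of which 1 gene, HOXA2, is analysed here and was detected on no fresh array. Of the HOXB cluster 3 of 10 genes were detected, HOXB7 (116, 118 and 120), HOXB6 (96.7, 96.5 and 91.2) and HOXB4 (79.1, 85.9 and 91.7). Of the HOXC cluster 2 of 9 were detected, HOXC11 and HOXC6, and of the HOXD cluster 3 of 9, HOXD13, HOXD12 and HOXD3. These shares lie below the 53.9% of all genes, and all 8 detected genes were at or below percentile 80.3. Among the partner genes PBX3 stood out at 4956, 4732 and 4515, at percentile 98.7, and PBX2, PBX4 and PKNOX1 were detected. MEIS1, a DNA-binding partner of HOXA proteins, read 56.1, 60.2 and 59.3 on its 1 probe and was detected on no fresh array, and MEIS2 was mixed.

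Of 28 genes of myeloid leukemia, 24 (85.7%) were detected. KMT2A itself read 110, 108 and 104, and its fusion partner MLLT3 read 64.0, 69.4 and 59.4 on its 1 probe and was detected on no fresh array; which part of either transcript the probes read was not analysed here. NPM1, a nucleolar chaperone, read 20660, 19230 and 19420 on 1 probe and was detected on no array by its other probe. CCND3 and CDK6, which drive entry into S phase, read 8789, 8367 and 8836, and 3280, 3302 and 3116. CDKN2A, which encodes inhibitors of the cell cycle, was detected by 0 of its 3 probes, and its neighbour CDKN2B by 1 of 3 (152, 130 and 110). TET2 was detected on no fresh array and DNMT3A was mixed. MYC read 2256, 2343 and 2102 and was detected by both of its probes.

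Cytokine receptors were detected more often than genes at large, 30 of 40 against 53.9%. Of the colony-stimulating factor family, CSF1R, the macrophage growth factor receptor, read 2170, 2054 and 1966, CSF2RA, the binding chain for GM-CSF, read 1720, 1480 and 1665 with 4 of 4 probes detected, and CSF3R, the granulocyte growth factor receptor, read 1508, 1345 and 1491. CSF2RB, the chain through which GM-CSF, IL-3 and IL-5 receptors signal, read 63.0, 59.5 and 62.8 and was the 1 of 8 detected on no fresh array, so the binding chains CSF2RA and IL3RA (99.2, 104 and 99.1) were detected without it. Among interleukin receptors IL10RB (5318, 4886 and 5002) and IL13RA1 (1070, 997 and 1008) were detected. The chains IL2RA and IL2RG and the receptors IL1R1, IL1R2 and IL18R1 were detected on no fresh array, and IL2RB and IL15RA were mixed. Of 13 interferon, TNF and TGF-beta receptors, 11 were detected, with IFNGR2 at 3619, 3377 and 3365 and IFNGR1 at 1824, 1741 and 1807, the death receptor FAS was detected on no fresh array, and TGFBR1 was mixed (94.2, 83.1 and 70.8).

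Chemotactic receptors, which guide cells along gradients, were detected in 9 of 26 cases, below the 53.9% of all genes. CCR2, the receptor that brings monocytes to inflamed tissue, read 1020, 977 and 962 on its brightest probe and was detected by 2 of its 5 probes. CXCR4, CX3CR1, CXCR2 and CCR1 were detected at percentiles 83.9 to 93.2, and CCR9 and ACKR3 were mixed. The brightest probe of CCR6, a receptor best known from lymphocytes and dendritic cells, read 15302, 12848 and 14678, at percentile 99.7, but the other 2 probes of CCR6 read 73.5, 69.8 and 67.2, and 56.1, 55.0 and 53.6, and were detected on no fresh array. Of 9 receptors of peptides, complement and lipids only LTB4R, the leukotriene B4 receptor (139, 160 and 147), was detected. The formyl peptide receptors FPR1, FPR2 and FPR3, the complement receptors C5AR1 and C3AR1, and PTAFR, all prominent on mature phagocytes, were detected on no fresh array.

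Sensors of microbes were counted by where they act. Of 14 Toll-like receptors and partners 6 were detected (42.9%), against 53.9% of all genes. They were TLR4, TLR2, TLR6, CD14, LY96 and LY86, which together read bacterial surface products. TLR4, the lipopolysaccharide receptor, read 117, 112 and 113, its partner LY96 read 125, 106 and 104, and TLR2, which reads lipoproteins, read 90.8, 87.6 and 88.4. TLR3, TLR7, TLR8 and TLR9, which read nucleic acids in endosomes, were detected on no fresh array, nor were TLR5 and TLR10, and TLR1 was mixed. Of 13 cytosolic sensors 11 were detected (84.6%), and 8 (61.5%) passed a score above 0.99, against 45.7% of all genes. STING1, which signals the presence of cytosolic DNA, read 4264, 4043 and 4378, NLRP3, an inflammasome sensor, read 1597, 1489 and 1486 with 3 of 3 probes detected, and CASP1, the inflammasome protease, read 1417, 1217 and 1300. AIM2, a DNA-sensing inflammasome protein, was detected on no fresh array and NLRP1 was mixed. Of 10 adaptors and kinases 9 were detected, MYD88 among them at 257, 254 and 246.

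Of 40 nuclear receptors, 18 (45.0%) were detected, against 53.9% of all genes. RXRA, the common partner of lipid-sensing receptors, read 2871, 2797 and 2674. Its partners RARA, NR1H3, PPARG and VDR were detected at percentiles 75.3 to 91.8, PPARG by 1 of its 4 probes (207, 199 and 222). The estrogen receptors ESR1 and ESR2 were detected on no fresh array, and NR3C1, the glucocorticoid receptor, read 168, 137 and 148. NR4A1 and NR4A3, early response receptors, were detected on no fresh array, whereas NR4A2 read 126, 118 and 121. Of 25 signal-dependent factors, 21 (84.0%) were detected, against 53.9% of all genes, with EGR1, FOS and JUND at percentiles 97.4, 94.7 and 98.2. NFKB2 and IRF7 were detected on no fresh array.

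Of the 184 metabolic genes listed 136 (73.9%) were detected, against 53.9% of all genes. Glycolysis was represented by every general enzyme analysed. All 14 enzymes used in many tissues were detected, ENO1 at 18171, 16108 and 16707, LDHA at 11827, 12146 and 11875 and GAPDH at 9979, 9019 and 9118. Of 10 isozymes known mainly from single tissues 4 were detected, the aldolase ALDOC (444, 387 and 403), the enolase ENO3 (218, 239 and 214), the hexokinase HK3 (111, 112 and 92.0) and the phosphofructokinase PFKM. The germ cell isozymes GAPDHS, PGK2 and LDHC, the muscle isozyme PGAM2, the neuronal ENO2 and the liver and red cell kinase PKLR were detected on no fresh array. The hexokinases HK1 (1509, 1417 and 1563) and HK2 (158, 147 and 155) were detected beside HK3. Of 7 glucose transporters, SLC2A1 (2127, 1823 and 1830), SLC2A3 (205, 189 and 185), SLC2A6 and SLC2A5 were detected. SLC2A5, a carrier of fructose, read 3444, 3266 and 3505, and the liver and muscle carriers SLC2A2 and SLC2A4 were detected on no fresh array.

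Gluconeogenesis was detected in part, with PCK2, the mitochondrial form of its entry enzyme (431, 416 and 472), FBP1 and G6PC3 detected and PCK1, FBP2, G6PC1 and PC on no fresh array. Of 18 enzymes of the urea cycle and amino acid breakdown 4 were detected, ASS1 (699, 691 and 639), ASL, HAL and CPS1, while OTC, ARG1 and ARG2 were detected on no fresh array. ASS1 and ASL form arginine from citrulline, and both were detected while the arginases were not. The citric acid cycle and its entry enzymes were detected in 19 of 22 cases, MDH2 at 17212, 15842 and 17301 and CS at 4114, 3702 and 3811. PDHA2, a testis isozyme, was detected on no fresh array and the kinases PDK2 and PDK4 were mixed. In the pentose phosphate pathway 7 of 9 were detected, TALDO1 at 9053, 9100 and 8806, and the transketolase-like genes TKTL1 and TKTL2 on no fresh array.

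The list of serine, glutamine and nucleotide enzymes was detected in full. All 13 genes of serine and glutamine metabolism were detected, PHGDH, which starts serine synthesis, at 5779, 5271 and 5306. GLUL, glutamine synthetase, read 118, 118 and 109 on 1 of its 4 probes. All 19 genes of nucleotide synthesis and salvage were detected, RRM1 at 5729, 5798 and 6012 and TYMS at 5377, 4806 and 5392. Of 19 fatty acid genes 16 were detected, FASN at 6117, 5388 and 5445, and ELOVL6, FADS2 and CPT1C on no fresh array. Of 12 sterol genes 11 were detected, with SOAT2, the intestinal and hepatic isozyme of cholesterol esterification, on no fresh array. In eicosanoid synthesis the leukotriene branch was detected throughout, ALOX5AP at 3032, 2979 and 3067, ALOX5 at 1570, 1396 and 1456, LTA4H at 1838, 1828 and 1768 and LTC4S at 774, 703 and 802. The cyclooxygenases PTGS1 (145, 148 and 124) and PTGS2 (135, 133 and 139), which start prostaglandin synthesis and were chosen after their values were seen, were detected, as were the prostaglandin E synthases PTGES2 and PTGES3. In this list 11 of 17 genes were detected. The prostaglandin synthases PTGES, PTGDS, HPGDS and PTGIS and the lipoxygenase ALOX12 were detected on no fresh array. In iron and heme metabolism 11 of 17 were detected, TFRC, the transferrin receptor, at 4468, 4046 and 4094, while HAMP, TFR2, SLC11A1 and HMOX2 were detected on no fresh array and HMOX1 was mixed.

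Replicate spread was small for most genes and grew towards the detection limit. Over 10050 genes whose brightest probe was detected on all 3 fresh arrays, the median SD of normalized log2 signal was 0.0864, against 0.0867 over the frozen and 0.0844 over the replated arrays. In 4 equal groups of rising signal the median SD on the fresh arrays was 0.134, 0.100, 0.0757 and 0.0622. Between pairs of fresh arrays Pearson's r over these genes was 0.996 to 0.997, a description across genes that share arrays, and at most 1 gene differed by over 2-fold.

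The gene with the widest spread was CLOCK, a transcription factor of the circadian clock, whose probe read 251, 210 and 124 (SD 0.66 on the log2 scale, n = 3). Its other probe read 171, 168 and 166, so the spread belonged to 1 probe. CD63, a tetraspanin of granule membranes with 1 probe here, read 751, 402 and 739 (SD 0.52), with fresh replicate 2 low. On the frozen arrays the same probe read 570, 419 and 538 and on the replated arrays 697, 711 and 731. PTPRC, the leukocyte antigen CD45, read 182, 138 and 107 on its brightest probe (SD 0.49) and 81.1, 72.4 and 71.4 on another. The rest of the 10 genes with the widest spread, RBM33, ZNF91, DLG4, CCNL2, WDR81, IFNA10 and JAM3, had SDs of 0.45 to 0.48 and signals of 72.6 to 178.

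**Figure D5:**
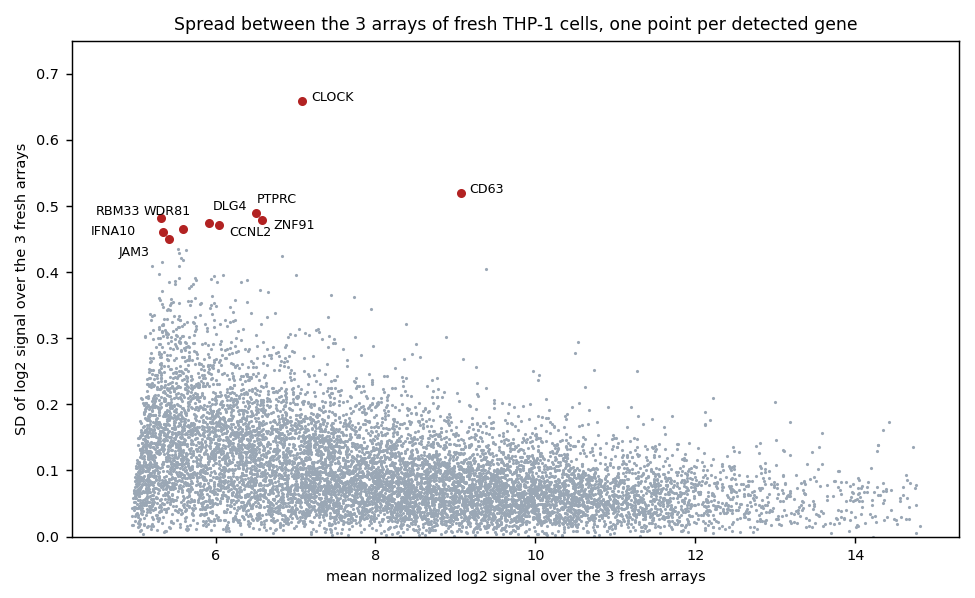
SD of normalized log2 signal over the 3 fresh arrays (vertical axis) against mean log2 signal (horizontal axis) for 10050 genes detected on all 3, with the 10 genes of widest spread in red. CLOCK (0.66) and CD63 (0.52) stand above 0.5, and the cloud narrows as signal rises.

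Most of this profile was shared with the frozen and replated cells. Of the 18662 genes, 16702 (89.5%) had the same state on the fresh, frozen and replated arrays, and of the 631 list genes 573 (90.8%) did. Of the genes detected on the fresh arrays 97.0% were detected on all 3 frozen arrays and 97.6% on all 3 replated arrays. Genes detected on all 3 fresh arrays and on no frozen or replated array numbered 7, chosen here after their values were seen: ALOX15, CRB3, DNAJC2, EVC, MB21D2, SLC6A9 and ZNF611. The corresponding counts were 10 for frozen and 4 for replated arrays, and 0 genes were detected on all 6 other arrays and on no fresh array. All 7 lay close to the detection limit, with normalized log2 signals of 4.94 to 5.39 on the fresh arrays and 4.55 to 4.92 on the other 6. Of them DNAJC2, a ribosome-associated chaperone, had log2 differences of 0.45 against frozen and 0.33 against replated cells. The same values picked these 7 genes, so a test on them would not be independent and no p-value is given.

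The level of the list genes was compared between states by limma over 18102 probes, fresh minus frozen and fresh minus replated, with Benjamini-Hochberg adjustment; both comparisons share the fresh arrays. In fresh against frozen cells 184 probes (1.02%) passed an adjusted p under 0.05, 96 higher and 88 lower. With arrays centred on the median of all 48803 probes instead, the split was 757 higher and 70 lower, and the median log2 difference of the probes tested was 0.1045, against -0.0057. With a normexp offset of 50 it was 355 and 187, and with no background correction 374 and 188. By the brightest probe, 56 of 10917 genes (0.513%) were higher and 49 (0.449%) lower. Of 392 list genes tested, 3 (0.765%) were higher, CCR2 by 0.55 (adjusted p = 0.00432), DLD, a subunit of pyruvate dehydrogenase, by 0.49 (adjusted p = 0.0181) and SOAT1, which esterifies cholesterol, by 0.34 (adjusted p = 0.0486). CCR2 was the 1 of these 3 that passed whichever array was left out. DLD had adjusted p of 0.0684, 0.0589, 0.0579 and 0.061 without fresh replicate 1, fresh replicate 2, frozen replicate 1 and frozen replicate 3, and SOAT1 had adjusted p of 0.0685 to 0.132 over the 9 arrays left out in turn. The fit rests on few arrays: 184 probes became 73, 49 and 74 without fresh replicates 1, 2 and 3, and 100, 63 and 109 without frozen replicates 1, 2 and 3. Without replated replicates 2 and 3, which lend their spread to the fit, the count was 119 and 117.

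In fresh cells 10 list genes (2.55%) were lower than in frozen cells, and the 5 with the largest differences encode immediate early transcription factors. JUN, a subunit of AP-1, had normalized log2 signals of 7.69, 7.58 and 7.81 on the fresh arrays and 11.05, 11.13 and 11.24 on the frozen arrays, a difference of -3.45 (adjusted p = 1.8e-08). FOSB, its partner, differed by -3.47 (adjusted p = 1.02e-06), and NR4A2, FOS and ATF3 differed by -1.91, -1.63 and -1.53. The fresh and frozen values of JUN did not overlap. Those factors had been put in the list with earlier results of these arrays known, so their number is a description. Over all 392 list genes the median difference was -0.0067, against -0.0054 over all genes tested.

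In fresh against replated cells 747 probes (4.13%) passed, 345 higher and 402 lower, while median centring gave 257 higher and 211 lower. By the brightest probe 236 genes (2.16%) were higher and 266 (2.44%) lower. Of the 392 list genes 18 (4.59%) were higher and 27 (6.89%) lower in fresh cells. The lists were drawn up with earlier results of these arrays known, so these shares are a description and show no enrichment. EGR1, an immediate early factor, was higher by 2.17 (adjusted p = 7.54e-06), FOSB, FOS and NR4A2 were higher by 2.04, 1.04 and 0.87, and IL21R, a cytokine receptor, by 1.06. Lower in fresh cells were GPNMB, with a log2 difference of -1.82 (adjusted p = 1.27e-05), ABCA1, which exports cholesterol, with -1.12, LYZ with -0.85, SREBF1, a regulator of lipid synthesis, with -0.77 (adjusted p = 0.0157) and CYBB, the phagocyte oxidase subunit, with -0.63 (adjusted p = 0.0141). SREBF1 had adjusted p of 0.0553 and 0.0643 without replated replicates 2 and 3, and CYBB had 0.0536 without fresh replicate 1 and 0.0561 without replated replicate 1. CCR2, higher in fresh than in frozen cells, was lower in fresh than in replated cells, with a difference of -0.42 (adjusted p = 0.0095). The 747 probes became 342, 276 and 395 without fresh replicates 1, 2 and 3, and 319, 322 and 244 without replated replicates 1, 2 and 3. Over all 392 list genes the median difference was -0.013, against 0.0017 over all genes tested.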

How the data were processed

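Total RNA was extracted with the QIAGEN miRNeasy kit and labelled as biotinylated cRNA with the Ambion MessageAmp kit, per the labels. The deposited values are, per the file headers, a non-normalized bead intensity and a detection value for each of 48803 probes and 9 arrays. The detection value is headed as a p-value but was read as a deposited score equal to 1 minus that p, since sorting an array by its signal also sorts this column without a single drop (0 drops, and 984 or more when another array's signal does the sorting). A second deposited table holds an intensity processed by the authors, with the same rank order in each array (rank correlation 1), column medians of 5.04 to 5.06 and sorted columns that differ by at most 0.109% of the highest value. For the scanner software and that normalization, nothing is given in the sources used here; 0 sample columns were unused.

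Probes were named through the platform annotation: 27541 by gene identifier, 12 by accession and 25 by the annotation's own symbol, with 13 naming several genes and 21212 unlisted, using RefSeq gene and promoter tables of GRCh38.p14. The brightest probe on the fresh arrays stood for a gene. For levels, neqc of limma 3.58.1 (R 4.3.3, offset 16) normalized the 9 arrays, 18102 probes detected on at least 3 arrays were kept, and lmFit and eBayes were fitted with 6 residual and 4.65 prior degrees of freedom and Benjamini-Hochberg adjustment at 0.05. Brightest genes, spread and differences are on that log2 scale of the normexp-corrected deposited intensity. The number of arrays limits the precision, and since the separation of the biological replicates is not described, p-values measure the spread between these arrays. The arrays were fitted without pairing. Deviations of arrays with the same replicate number correlated between -0.0476 and 0.0474, which cannot show whether such arrays shared a culture or batch. The methods were tested on simulated data.

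The members and lists were chosen with earlier results of these data known. Genes named in the text were drawn from the 15 brightest genes with and without ribosomal, elongation factor, actin and tubulin genes, up to 6 detected and 6 undetected members and the mixed members of a group, the 10 genes of widest spread, up to 5 list genes per contrast and direction, fixed genes of the line, and members opposite to the rest of their group. Of 695 list genes, 64 without a named probe are not analysed here. Alternatives were another detection score, offset and centring, no background correction, a replicate block, the values the authors processed, looser or stricter probe filters, and arrays left out in turn.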

Additional observations from a re-analysis of the deposited data

Results flagged for a closer look

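Probes that carry no gene name here gave signal on the fresh arrays, in data outside the lists. Of 21225 such probes 2789 (13.1%) were detected on all 3 fresh arrays, against 47.2% of named probes, and 1766 of them passed a score above 0.99 on all 3. Their median signal was 135 and their median percentile 78.3. Among them 602 lay above percentile 90 and 126 above percentile 99, so the named set leaves out bright probes. The brightest read 27263, 26870 and 27817.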

How the results depend on the processing

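At a score above 0.99 the genes detected on all 3 fresh arrays numbered 8526 and those on no array 9550. With the brightest probe alone they were 10050 and 7417, and without 1 fresh array 10187 to 10273 and 7569 to 7720. Percentiles could not move under the authors' values, which keep the rank order of each array. When named probes alone were the base, 321 of 460 percentiles moved by more than 1 SD (largest move 14.8). The SD of 6 of the 10 widest-spread genes moved with an offset of 50 and of 4 with the authors' values. Probes called for fresh against frozen and fresh against replated numbered 542 and 1333 with an offset of 50, 562 and 1303 with no background correction, 827 and 468 with median centring, and 103 and 427 with the authors' values. For fresh against frozen the 2 states alone gave 54 calls. Leaving out 1 array gave 49 to 138 calls for fresh against frozen and 244 to 691 for fresh against replated. At an unadjusted p below 0.05 there were 3115 and 3617 probes. None of the 18 log2 differences followed through the alternatives changed sign, and 22 of their 306 alternative values lost their call. The differences of DNAJC2, and of CCR2 against replated cells, were not followed. The cause of these moves was not tested. Low signals near the detection limit bound what absence can show. With a replicate block 104 probes passed for fresh against frozen and 444 for fresh against replated.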

Other observations

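Beyond the lists, detection differed with the kind of transcript. Of 281 transcribed pseudogenes 94 (33.5%) were detected on all 3 fresh arrays, and of 56 small nucleolar RNA genes, whose products guide the modification of ribosomal RNA, 34 (60.7%) were. Of 28 beta-defensin genes, which encode epithelial antimicrobial peptides, 4 (14.3%) were detected.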
